A study of Homo sapiens with 12 samples.

Results

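Chromatin remodelling complexes use the energy of ATP to slide, evict or exchange nucleosomes, and each is built from a motor of the SNF2 family with a set of partner subunits. They fall into the INO80, SRCAP/EP400, SWI/SNF, CHD/NuRD and ISWI families. The INO80 complex moves nucleosomes and acts at damaged DNA and at replication forks, SWI/SNF opens promoters and enhancers, NuRD joins a CHD motor to histone deacetylases, and ISWI spaces nucleosomes into regular arrays. The genes of these complexes were taken from a list of 49 symbols, and a gene was counted as measured where a row of the arrays was paired with its symbol alone. By this rule 33 of the 49 were measured, out of 14232 genes on the arrays. They were 11 of 15 INO80 genes, 11 of 15 SWI/SNF genes, 6 of 12 CHD/NuRD genes and all 5 ISWI genes, while neither SRCAP nor EP400 was measured.

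The rows of 12 listed genes were shared with other genes, and their values are not reported: ACTR8, YY1, NFRKB, TFPT, SRCAP, EP400, SMARCD2, SMARCE1, CHD3, CHD4, MBD2 and MTA1. No row of the probe table carried ARID2, BRD7, CHD7 or CHD8, which were not analysed here. The motors of the SRCAP, EP400 and NuRD complexes were therefore outside the measured set, and the CHD/NuRD group held CHD1, CHD2, CHD6 and CHD9, which work mostly outside NuRD, beside the NuRD subunits MBD3 and MTA2. RUVBL1, RUVBL2 and ACTL6A were counted with INO80, although they also sit in other remodellers.

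The cells were A549, a human lung adenocarcinoma line, grown without drug or with cisplatin, which forms platinum crosslinks in DNA, at its no-observed-effect level (NOEL). The labels give the dose as the concentration of 10% inhibition, added 24 h after seeding. RNA was collected after 24 or 48 h, and each of the 4 conditions (untreated 24 h, cisplatin 24 h, untreated 48 h and cisplatin 48 h) had 3 exon arrays. The question was which genes respond to a dose that leaves the cells viable. The methods report 3 independent experiments, but the labels do not say which arrays belong to which, so the p-values measure the spread between arrays, part of which may be technical. Only 1 cell line was used. Its epithelial markers lay between percentiles 31.1 (EPCAM) and 99.9 (KRT8) of all genes. Endothelial markers lay between 9.17 and 29.7, fibroblast markers between 1.90 and 52.1, and leukocyte markers between 1.05 (PTPRC) and 90.9 (CD68, a lysosomal protein that is not limited to leukocytes).

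The array of untreated 24 h replicate 3 was unlike the rest. Its mean correlation with them across genes, which are not independent replicates, was 0.972, against 0.987 to 0.990 for the others, and its values covered a narrower range, with a slope of 0.879 against their mean. Among the remodelling genes it was the lowest of the 12 arrays for 22 of 33, and 31 of 33 lay below their own mean there, with a median deviation of -0.25 on the log2 scale. The other arrays had median deviations between -0.05 and 0.06. The study's methods discard an outlying 24 h sample set that is not named. Here all labelled arrays were kept, and the 24 h differences and counts of the remodelling genes are also given without this array.

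**Figure D1:**
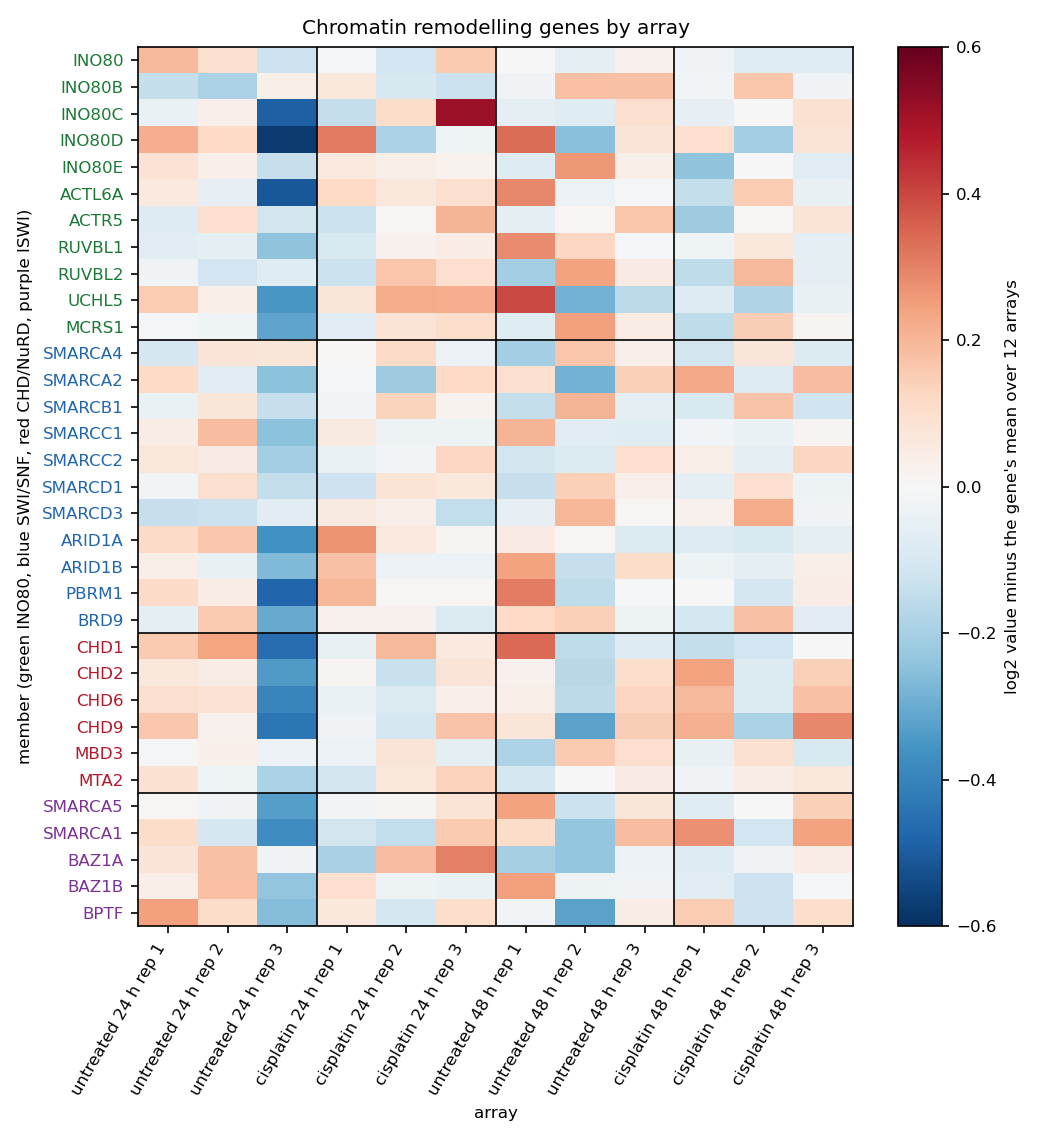
Heat map of 33 remodelling genes (rows, grouped by complex) on 12 arrays (columns, grouped by condition), where colour is the log2 value minus the mean of the gene over the 12 arrays. The column of untreated 24 h replicate 3 is blue for 31 of 33 genes, with a median deviation of -0.25.

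The promoters of these genes were richer in CpG than most. RefSeq (GRCh38.p14) gave a promoter sequence, which ends just inside the gene, for 27 of the 33 measured genes. Their median number of CpG dinucleotides was 29, against 21 over 22199 promoters of protein-coding genes, with a range from 3 to 55. A TATAAA box was found on either strand in 1 of 27, RUVBL1 (3.7%, against 9.47% of protein-coding promoters), and CCAAT in 33.3%, against 34.7%. The palindrome-like motif bound by the factor NRF1 was found in 7 of 27 (25.9%, against 7.39% of protein-coding promoters). The motif GCCATNTT, bound by YY1, which is itself a subunit of INO80, was found in 3 of 27 (11.1%, against 7.37%), and CCGGAAGT, bound by ETS factors, also in 11.1%, against 5.34%. Both strands were searched, and the NRF1 motif, being near its own reverse complement, can match on both. The NRF1 and ETS motifs hold CpG themselves, and the promoters compared were not matched for their number of CpG. A match is a run of letters and not a bound site. To show what these matches look like, 3 windows hold the YY1 motif and 3 the NRF1 motif, with the motif in capitals on the strand of the gene.
ACTR5, chr20:38748465-38748494, plus strand: acgcgcgctccAAGATGGCggcgaacgtgt
INO80E, chr16:29996053-29996082, plus strand: ttccagcgtccGCCATTTTtgtggcgtcac
SMARCD1, chr12:50085356-50085385, plus strand: gcggctccgggAAGATGGCggcccgggcgg
INO80C, chr18:35497676-35497705, minus strand: ctcccaggctGCGCGTGCGCgtcgcgaaac
SMARCA4, chr19:10960845-10960874, plus strand: agggacgggcGCGCACGCGCgccgggagcg
CHD1, chr5:98929122-98929151, minus strand: tcccattcgtGCGCGTGCGCgcactcgccc
In ACTR5 and SMARCD1 the YY1 motif lay just after the start, at positions 17 and 26 of the transcript, and in INO80E at position -177. In INO80C, SMARCA4 and CHD1 the NRF1 motif began at positions -87, -175 and -134.

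Remodelling genes were mostly well above the middle of the array signal. Their mean log2 values over the 12 arrays ran from 7.13 for INO80C to 11.46 for RUVBL2, and 30 of 33 lay above the median of all genes, 8.29. All 6 CHD/NuRD genes and all 5 ISWI genes were above it, with 10 of 11 INO80 genes and 9 of 11 SWI/SNF genes. The 3 below were INO80C at percentile 29.2, SMARCA4 at 45.5 and SMARCD3 at 48.6. Array levels depend on each gene's probes, so that these percentiles describe signal and do not rank the abundance of the RNAs. The spread between arrays of a condition had a median SD of 0.15 over the 33 genes, against 0.17 over all genes, from 0.10 for RUVBL1 to 0.30 for INO80D.

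None of the 33 remodelling genes passed an adjusted p under 0.05 in any comparison, in limma fits adjusted by Benjamini-Hochberg over 14232 genes, and none had an unadjusted p under 0.05. At 24 h the share of all genes past the adjusted threshold was 0.00703% and past the unadjusted one 3.06%. At 48 h these shares were 0% and 1.15%, for the difference between the effects at 48 and 24 h 0% and 1.15%, for cisplatin over both times 0.0281% and 3.33%, and for time over both treatments 0.134% and 6.13%. With 33 genes and so few calls among all genes, a count of 0 lies near these shares. Among the alternatives, 1 gave calls: array weights estimated by REML, a fit that stopped before convergence and called 2254 of all genes at 24 h, called INO80 (-0.17), SMARCC1 (-0.20) and BAZ1B (-0.19) lower and RUVBL2 (0.24) higher at that time. In bulk RNA a change in the number of cells of a kind and a change in RNA per cell cannot be told apart. CDKN1A, which encodes the cell cycle inhibitor p21, had the largest rise of all genes with cisplatin over both times. Its log2 value was 1.14 higher (SE 0.10, adjusted p = 0.000254 from limma), which is 2.20-fold. At 48 h alone it was 1.04 higher, or 2.06-fold, and did not pass (adjusted p = 0.0965 from limma). It is an example of a large change and does not mark the smallest change that the arrays resolve.

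Over both times, with 6 arrays against 6, the fitted differences ran from -0.06 for INO80E to 0.17 for INO80C. The 95% intervals of the 33 genes, each taken singly, lay between -0.28 and 0.43, that is between 0.823-fold and 1.35-fold. At 1 time alone they were wider, from -0.34 to 0.68 at 24 h (0.792-fold to 1.60-fold) and from -0.51 to 0.52 at 48 h (0.703-fold to 1.43-fold). Of the genes, 22 were higher and 11 lower in cisplatin-treated cells, with a median of 0.04, against 0.01 over all genes, of which 53.8% were higher. Among genes above the median level, where most remodelling genes lie, 77.3% were higher and the median was 0.05. The group medians were 0.02 for INO80, 0.03 for SWI/SNF, 0.06 for CHD/NuRD and 0.07 for ISWI. The treated and untreated arrays overlapped in every remodelling gene, and 0.246% of all genes had no overlap. With untreated 24 h replicate 3 left out, 13 differences were positive and 20 negative, and the median was -0.01. Of all genes 45% were then positive.

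**Figure D2:**
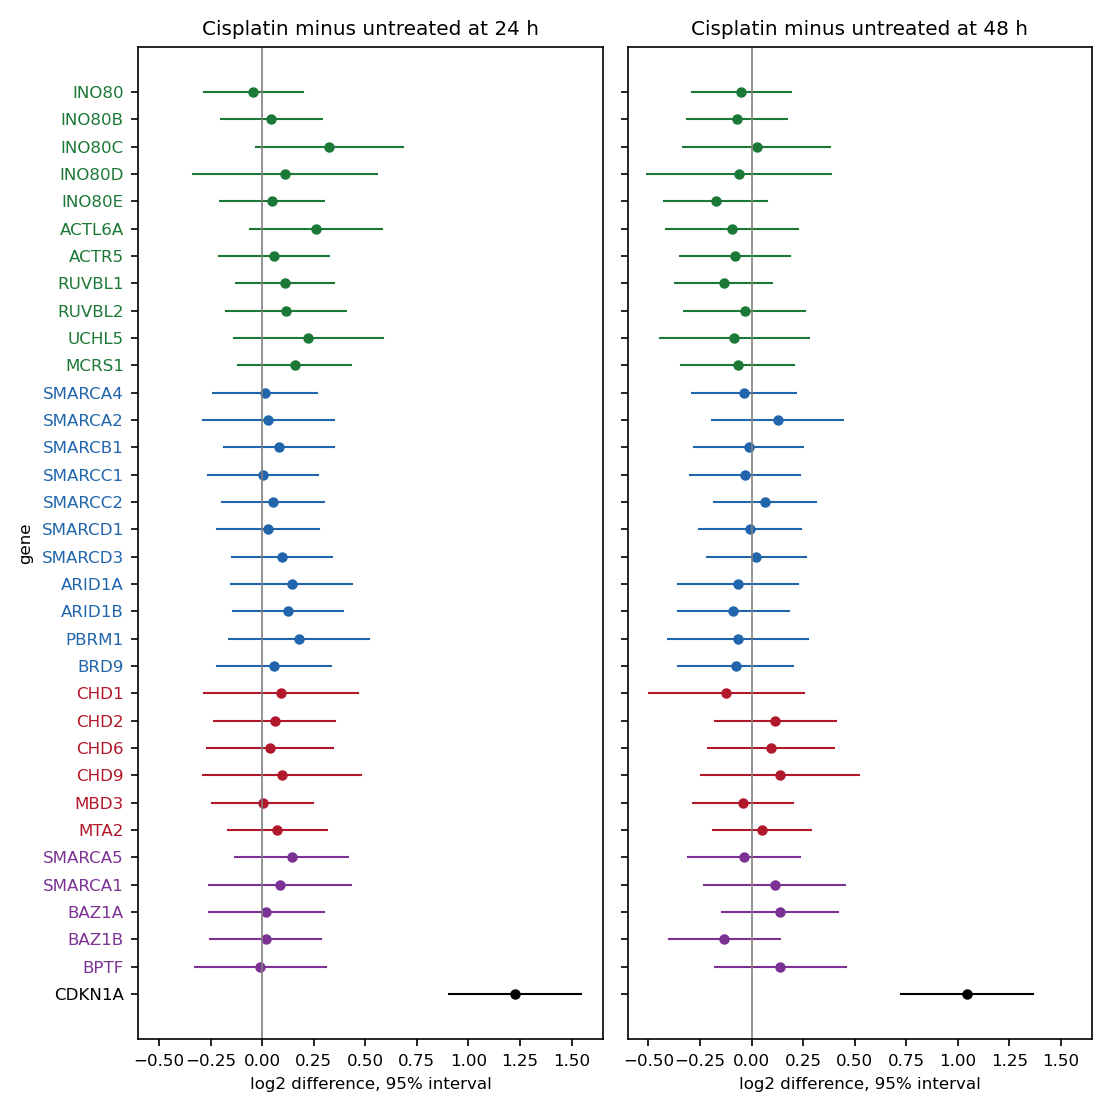
Log2 difference between cisplatin-treated and untreated cells (horizontal axis) at 24 h (left) and at 48 h (right) for 33 remodelling genes, coloured by complex as green INO80, blue SWI/SNF, red CHD/NuRD and purple ISWI, with CDKN1A in black. Points are limma estimates from 3 arrays against 3 and lines are 95% intervals, all of which cross 0 for the remodelling genes and none for CDKN1A.

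At 24 h, 31 of 33 remodelling genes had a positive difference between treated and untreated cells, with a median of 0.07, against 0.03 over all genes, of which 57.9% were higher. Among genes above the median level 83.0% were higher, with a median of 0.10. The group medians were 0.11 for INO80, 0.06 for SWI/SNF, 0.07 for CHD/NuRD and 0.02 for ISWI. The direction rested on untreated 24 h replicate 3. Without it 13 of 33 genes were higher and 20 lower, the median was -0.02, and 18 genes changed sign. By group, 8 of 11 INO80 genes stayed positive, with a median of 0.06, against 4 of 11 SWI/SNF genes, 0 of 6 CHD/NuRD genes and 1 of 5 ISWI genes, with medians of -0.02, -0.08 and -0.04. Over all genes 52.5% were positive without that array, and the median was 0.01. The count also rested on the scaling of the arrays. After quantile normalization 16 of 33 were positive and 17 negative, with a median of -0.0055, where 52.4% of all genes were positive. After median centring 28 were positive and 5 negative, with a median of 0.06, where 54% of all genes were positive.

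**Figure D3:**
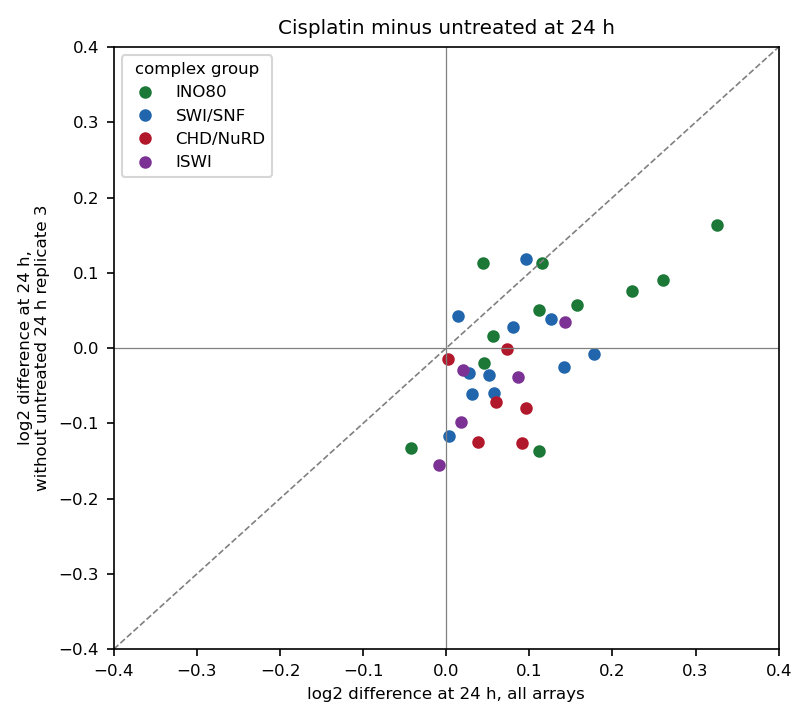
Log2 difference between cisplatin-treated and untreated cells at 24 h for each remodelling gene, with all arrays (horizontal axis) and without untreated 24 h replicate 3 (vertical axis), coloured by complex; the dashed line marks equal values. Of 33 points, 30 lie below the dashed line and 18 change sign.

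At 48 h, 11 of 33 remodelling genes were higher and 22 lower in cisplatin-treated cells, with a median of -0.04, against -0.02 over all genes. Of all genes 42.2% were higher, and of genes above the median level 48.9%. INO80 genes were lower in 10 of 11, with a median of -0.07, and SWI/SNF genes in 8 of 11, with a median of -0.03. CHD/NuRD genes were higher in 4 of 6, with a median of 0.07, and ISWI genes in 3 of 5, with a median of 0.11. The spread of a group's mean between arrays of a condition was pooled over both times. Its SD was 0.09 for INO80, 0.08 for SWI/SNF and 0.13 for both CHD/NuRD and ISWI. It includes untreated 24 h replicate 3, with mean deviations of -0.22 to -0.31, and so does not describe the 48 h arrays alone. On the 48 h arrays the mean deviations ran from -0.09 to 0.08 for INO80 and from -0.02 to 0.03 for SWI/SNF. They ran from -0.11 to 0.10 for CHD/NuRD and from -0.19 to 0.10 for ISWI. Without untreated 48 h replicate 2 the ISWI median was -0.015. Without untreated 48 h replicate 1, or without cisplatin 48 h replicate 1, 17 of 33 genes were higher and 16 lower, with a median of 0.0025 or 0.0026. Of all genes 40.2% or 45% were then higher. No gene's treated arrays lay all on one side of the untreated ones, whereas 6.01% of all genes had no overlap. For the difference between the effects at 48 and 24 h, all 11 INO80 genes were negative, with a median of -0.22. Over all genes the median was -0.04 and 41.1% were positive. Over genes above the median level the median was -0.10 and only 26.6% were positive. No such difference passed the test, and all of them share the 24 h untreated arrays. ACTL6A had the smallest p of the 33 genes, with a difference of -0.35 (SE 0.21), and -0.18 without untreated 24 h replicate 3. Without that array 9 of 11 INO80 genes were negative, with a median of -0.15, and 19 of 33 remodelling genes were, with a median of -0.03. Of all genes 39.8% were then positive.

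INO80, the motor that gives the complex its name, gave no call at either time with unweighted arrays. At 24 h its values were 9.30, 9.21 and 8.98 on the untreated arrays 1 to 3, and 9.10, 8.996 and 9.27 on the cisplatin-treated ones, a difference of -0.13 without untreated replicate 3. At 48 h they were 9.11, 9.06 and 9.14 untreated, and 9.09, 9.04 and 9.04 treated. The ranges overlapped at both times, and the differences were -0.04 at 24 h and -0.05 at 48 h (SE 0.11 for each, adjusted p = 0.950 and 0.9995 from limma). Over both times the interval of the difference was -0.21 to 0.12, or 0.866-fold to 1.08-fold.

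**Figure D4:**
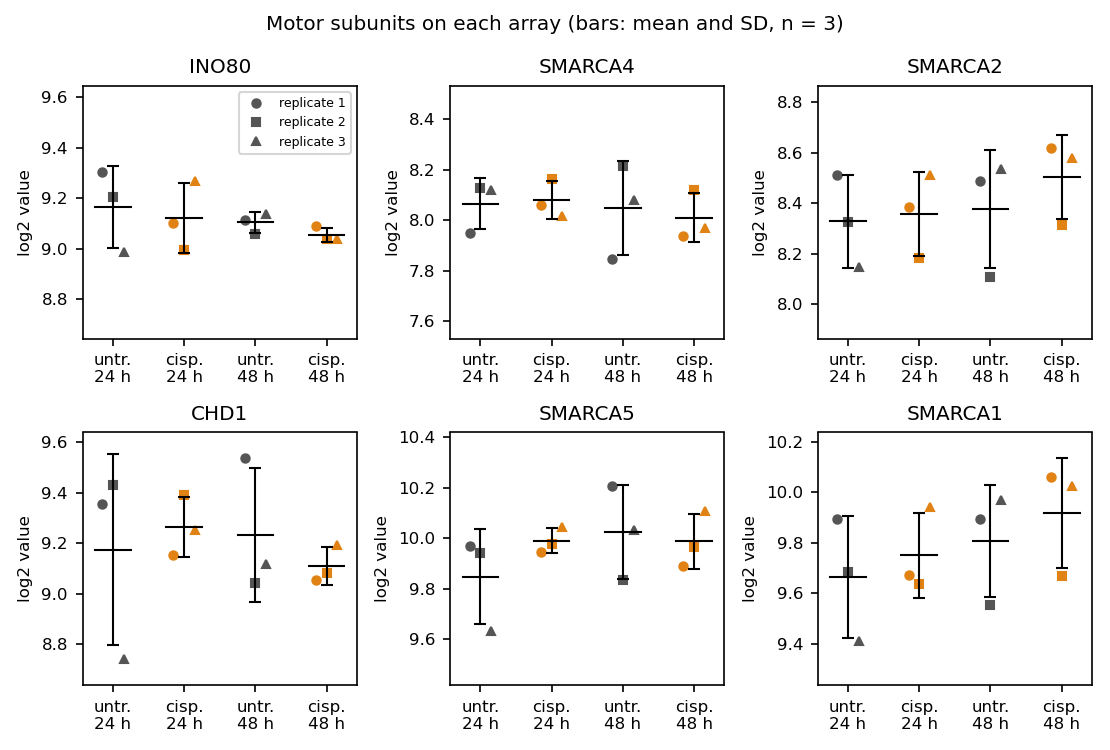
Log2 values of 6 motor genes (INO80, SMARCA4, SMARCA2, CHD1, SMARCA5 and SMARCA1) on each array by condition, grey for untreated and orange for cisplatin-treated, with a marker for each replicate number, a line at the mean and a bar of 1 SD (n = 3). The treated points overlap the untreated ones at both times in every panel, and each panel spans 1 log2 unit.

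INO80D, a metazoan subunit of the complex that was among the hits of the study's siRNA screen, had the largest SD between arrays of a condition. Its untreated arrays at 24 h read 9.76, 9.67 and 8.97, and the treated ones 9.86, 9.36 and 9.52. At 48 h the untreated arrays read 9.88, 9.30 and 9.63, and the treated ones 9.65, 9.34 and 9.63. The lowest value was that of untreated 24 h replicate 3, and without it the 24 h difference went from 0.11 to -0.14. Its 95% interval at 24 h, from -0.34 to 0.56, was the widest of the 33 together with that at 48 h.

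INO80C, a subunit of the INO80 complex, had the largest difference at 24 h. The untreated arrays read 7.09, 7.16 and 6.63, and the treated ones 6.98, 7.23 and 7.64. The difference was 0.33 (SE 0.17, adjusted p = 0.912 from limma), and the groups overlapped. Both ends of the range came from replicate 3 of their condition, and without untreated replicate 3 the difference was 0.16. At 48 h the values were 7.07, 7.05 and 7.22 untreated and 7.08, 7.13 and 7.22 treated, a difference of 0.02.

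ACTL6A, the actin-like protein of INO80 and SWI/SNF that is also called BAF53A, was the 1 remodelling gene whose groups did not overlap at 24 h, where 7.45% of all genes had no overlap. It read 9.44, 9.33 and 8.87 on the untreated arrays and 9.50, 9.44 and 9.47 on the treated ones, so that the highest untreated value and the lowest treated one nearly met. The difference was 0.26 (SE 0.15, adjusted p = 0.912 from limma), and 0.09 without untreated replicate 3. At 48 h its untreated arrays read 9.67, 9.34 and 9.37 and the treated ones 9.23, 9.53 and 9.33, which is -0.09.

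The other small INO80 subunits gave no call. INO80E had the largest fall of the estimates at 48 h, -0.17 (SE 0.12, adjusted p = 0.9995 from limma). Its values were 8.91, 9.25 and 9.02 untreated and 8.75, 8.99 and 8.93 treated, which overlapped. At 24 h they were 9.08, 9.02 and 8.85 against 9.05, 9.02 and 9.01, a difference of 0.05, and of -0.02 without untreated replicate 3. INO80B had the smallest p of all for time, being 0.15 higher at 48 h (SE 0.08, adjusted p = 0.875 from limma). It read 8.95, 8.90 and 9.13 untreated and 9.16, 8.99 and 8.96 treated at 24 h. The difference was 0.04, and 0.11 without untreated replicate 3. At 48 h it read 9.07, 9.27 and 9.27 untreated and 9.07, 9.26 and 9.07 treated, so the times overlapped.

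The enzymes and scaffolds shared by INO80 also gave no call. RUVBL1 and RUVBL2, the paired AAA+ ATPases that form the core ring of INO80, SRCAP and TIP60, differed by 0.11 and 0.12 at 24 h and by -0.14 and -0.03 at 48 h. UCHL5, the deubiquitinase that INO80 shares with the proteasome, differed by 0.22 and then by -0.08, and MCRS1 by 0.16 and then by -0.07. ACTR5, the actin-related protein of the nucleosome-binding module, differed by 0.06 and then by -0.08. Leaving out untreated 24 h replicate 3 gave 24 h differences of 0.05 for RUVBL1, 0.11 for RUVBL2, 0.08 for UCHL5, 0.06 for MCRS1 and 0.02 for ACTR5. The standard errors of these differences lay between 0.11 and 0.17, and the smallest adjusted p from limma was 0.912.

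SMARCA4 and SMARCA2, the alternative motors of SWI/SNF known as BRG1 and BRM, gave no call at either time. A549 is known to carry a SMARCA4 gene that yields no functional protein, and array signal does not report on protein. SMARCA4 read 7.95, 8.13 and 8.12 untreated and 8.06, 8.17 and 8.02 treated at 24 h. At 48 h it read 7.85, 8.22 and 8.08 untreated and 7.94, 8.12 and 7.97 treated. The differences were 0.01 and -0.04 (SE 0.12 for each), and the interval over both times was -0.18 to 0.16. SMARCA4 was 1 of 2 remodelling genes that untreated 24 h replicate 3 did not place below their mean, and without that array its 24 h difference was 0.04.

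SMARCA2 read 8.51, 8.33 and 8.15 untreated and 8.39, 8.18 and 8.51 treated at 24 h. At 48 h the untreated arrays read 8.49, 8.11 and 8.54 and the treated ones 8.62, 8.31 and 8.58. The difference at 48 h, 0.13 (SE 0.15, adjusted p = 0.9995 from limma), had the smallest p of the SWI/SNF group at that time. Without untreated replicate 3 the 24 h difference was -0.06. The arrays numbered 2 were the lowest of their condition at 48 h.

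SMARCD3, a BAF60 subunit that links SWI/SNF to transcription factors and was a hit of the siRNA screen, was higher at 48 than at 24 h by 0.13 (SE 0.08, adjusted p = 0.960 from limma). Its 24 h values were 8.09, 8.095 and 8.16 untreated and 8.28, 8.27 and 8.08 treated, and its 48 h values 8.18, 8.42 and 8.23 untreated and 8.25, 8.45 and 8.21 treated. Cisplatin made a difference of 0.10 at 24 h and 0.02 at 48 h, and both pairs of groups overlapped. Without untreated 24 h replicate 3 the 24 h difference was 0.12.

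PBRM1 and ARID1B, which target the PBAF and BAF forms of SWI/SNF, were lowest on untreated 24 h replicate 3. PBRM1 read 9.26, 9.19 and 8.67 untreated and 9.34, 9.15 and 9.16 treated at 24 h, and 9.45, 8.99 and 9.14 untreated and 9.15, 9.04 and 9.19 treated at 48 h. Its difference at 24 h was 0.18 (SE 0.16), and -0.01 without untreated replicate 3. ARID1B read 9.12, 9.04 and 8.82 untreated and 9.26, 9.05 and 9.05 treated at 24 h. At 48 h its values were 9.33, 8.95 and 9.20 untreated and 9.05, 9.03 and 9.12 treated, and the 24 h and 48 h differences were 0.13 and -0.09. ARID1A, the alternative to ARID1B, differed by 0.14 and then by -0.07. Without untreated 24 h replicate 3 the 24 h differences of ARID1B and ARID1A were 0.04 and -0.02.

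The core SWI/SNF subunits, with all arrays, had differences no larger than their standard errors. SMARCC1 and SMARCC2, the paired scaffold proteins, differed by 0.0033 and 0.05 at 24 h and by -0.03 and 0.07 at 48 h. SMARCB1, the core subunit lost in rhabdoid tumours, differed by 0.08 and then by -0.01, SMARCD1 by 0.03 and then by -0.01, and the bromodomain subunit BRD9 by 0.06 and then by -0.08. Their standard errors were 0.11 to 0.13. At 24 h the differences without untreated replicate 3 were -0.12 for SMARCC1, -0.04 for SMARCC2, 0.03 for SMARCB1, -0.03 for SMARCD1 and -0.06 for BRD9.

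Among the CHD motors, CHD1, which spaces nucleosomes in transcribed genes, had the widest spread of the untreated arrays at 24 h within its group. It read 9.35, 9.43 and 8.74 untreated and 9.15, 9.39 and 9.25 treated at 24 h, and 9.54, 9.04 and 9.12 untreated and 9.05, 9.08 and 9.19 treated at 48 h. The differences were 0.09 and -0.12 (SE 0.17 for each), and without untreated 24 h replicate 3 the first was -0.13. The untreated arrays had an SD of 0.38 at 24 h, against 0.12 for the treated ones.

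CHD2, a relative of CHD1, read 9.02, 8.99 and 8.61 untreated and 8.96, 8.82 and 9.02 treated at 24 h. At 48 h it read 8.98, 8.78 and 9.05 untreated and 9.19, 8.87 and 9.09 treated, a difference of 0.11 (SE 0.14, adjusted p = 0.9995 from limma), which was the smallest p of the group. The treated and untreated ranges overlapped at both times, and without untreated 24 h replicate 3 the 24 h difference was -0.07.

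CHD6 and CHD9 behaved alike in their spread. CHD6 read 8.95, 8.94 and 8.45 untreated and 8.81, 8.76 and 8.88 treated at 24 h, and 8.89, 8.69 and 8.98 untreated and 9.04, 8.77 and 9.03 treated at 48 h. CHD9 read 9.43, 9.30 and 8.84 untreated and 9.25, 9.16 and 9.44 treated at 24 h, and 9.34, 8.95 and 9.42 untreated and 9.48, 9.08 and 9.56 treated at 48 h. In both genes untreated 24 h replicate 3 was the lowest array and the arrays numbered 2 were the lowest at 48 h. The CHD9 differences were 0.10 and 0.14 (SE 0.18 for each). With untreated 24 h replicate 3 left out, the 24 h differences were -0.12 for CHD6 and -0.08 for CHD9. CHD9 also had a dim row of its own, with a mean log2 value of 4.50, where the differences were 0.07 and -0.11, so that the rows went opposite ways at 48 h.

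The NuRD subunits also differed by less than their standard errors. MTA2, the scaffold that joins the deacetylases to the complex, read 11.49, 11.38 and 11.21 untreated and 11.29, 11.47 and 11.54 treated at 24 h. At 48 h it read 11.29, 11.40 and 11.45 untreated and 11.38, 11.45 and 11.47 treated. The difference was 0.07 at 24 h and 0.05 at 48 h, and the interval over both times was -0.10 to 0.22. MBD3, the methyl-CpG-binding family member of NuRD, differed by 0.0016 at 24 h and by -0.04 at 48 h (SE 0.11 for each). The 24 h differences without untreated replicate 3 were -0.0016 for MTA2 and -0.01 for MBD3.

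The ISWI motors SMARCA5 and SMARCA1, known as SNF2H and SNF2L, gave no call at either time. SMARCA5 read 9.97, 9.94 and 9.63 untreated and 9.95, 9.98 and 10.05 treated at 24 h, and 10.21, 9.83 and 10.03 untreated and 9.89, 9.97 and 10.11 treated at 48 h. Its difference was 0.14 at 24 h (SE 0.13, adjusted p = 0.912 from limma), 0.04 without untreated replicate 3, and -0.04 at 48 h. SMARCA1 read 9.89, 9.68 and 9.41 untreated and 9.67, 9.64 and 9.94 treated at 24 h. At 48 h SMARCA1 read 9.90, 9.56 and 9.97 untreated and 10.06, 9.67 and 10.03 treated, so that the arrays numbered 2 were the lowest in both conditions and the differences were 0.09 and 0.11. Without untreated 24 h replicate 3 the first was -0.04.

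BAZ1A, the partner of SMARCA5 in the ACF and CHRAC complexes and a hit of the siRNA screen, was lower at 48 than at 24 h by 0.17 (SE 0.09, adjusted p = 0.877 from limma). At 24 h it read 10.38, 10.48 and 10.28 untreated and 10.10, 10.49 and 10.60 treated. At 48 h it read 10.10, 10.07 and 10.26 untreated and 10.22, 10.28 and 10.34 treated. The times overlapped, and the effects of cisplatin were 0.02 and 0.14 (SE 0.13 for each), the first -0.03 without untreated 24 h replicate 3.

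BAZ1B, the WSTF subunit of the WICH complex, was the ISWI gene with the smallest p at 48 h, where it was lower by 0.13 (SE 0.13, adjusted p = 0.9995 from limma) under cisplatin. It read 10.49, 10.63 and 10.21 untreated and 10.55, 10.42 and 10.41 treated at 24 h, and 10.69, 10.42 and 10.43 untreated and 10.38, 10.33 and 10.44 treated at 48 h. The ranges overlapped at both times. BPTF, the reader of methylated histone H3 in the NURF complex, differed by -0.0089 and then by 0.14 (SE 0.15 for each). Without untreated 24 h replicate 3 the 24 h differences were -0.10 for BAZ1B and -0.16 for BPTF.

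Time in culture gave no call among the remodelling genes either. At 48 h 23 of 33 genes were higher than at 24 h and 10 lower, with a median of 0.02, equal to the 0.02 of all genes. Of all genes 56.8% were higher at 48 h, and of genes above the median level 66.3%. The group medians lay between -0.0041 for ISWI and 0.04 for CHD/NuRD, and the 95% intervals of the genes between -0.38 and 0.39. INO80B and BAZ1A, described above, had the smallest p-values of the 33 genes, in opposite directions. The balance of signs depended on the outlying array and on the scaling. Leaving out untreated 24 h replicate 3 gave 13 positive and 20 negative time differences, with a median of -0.02. Of all genes 56% then remained positive. INO80B and ARID1A then had an unadjusted p under 0.05 from limma, as did 7.01% of all genes. Quantile normalization and median centring each gave 15 positive and 18 negative differences. Of all genes 49.1% and 45.5% were then positive.

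At 48 h the arrays numbered 2 carried a pattern of their own in both conditions. It was not limited to the remodelling genes: over all genes the deviations of these arrays correlated at 0.60, where genes are not independent replicates. Against the mean of the other arrays of the condition, 18 of 33 genes were lower on both, 11 higher on both, and 4 of opposite sign. CHD9 was lower by 0.43 on the untreated array and by 0.44 on the treated one, SMARCA1 by 0.38 and 0.37, SMARCA2 by 0.40 and 0.29, and BPTF by 0.34 and 0.26. RUVBL2 was higher by 0.32 and 0.30, SMARCB1 by 0.31 and 0.28, MCRS1 by 0.26 and 0.21, and SMARCD3 by 0.22 on each. These gaps exceeded the effects of cisplatin at 48 h in the same 8 genes. They are a description chosen after their values were seen, and their cause was not tested.

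Set against the untreated array of the same number, the treated arrays at 48 h were higher in all 3 pairs for 9 of 33 genes (27.3%, against 14.3% of all genes) and lower in all 3 for 5 (15.2%, against 12.6%). The 9 were CHD2, CHD6, CHD9, MTA2, SMARCA1, BAZ1A, BPTF, SMARCA2 and SMARCC2, and the 5 were INO80, INO80E, ACTR5, RUVBL1 and MCRS1. The differences of the pairs were 0.14, 0.13 and 0.14 for CHD9, 0.17, 0.19 and 0.06 for BPTF, and 0.12, 0.21 and 0.08 for BAZ1A. In a fit of the 48 h arrays alone with the replicate number as a block, CHD9 was higher by 0.14 with an SE of 0.07, against 0.18 in the fit of all 12 arrays without the block. In that fit 0 remodelling genes and 0 of all genes passed the adjusted threshold, and the smallest adjusted p of a remodelling gene from limma was 0.904. The pairs were compared after their values were seen.

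Other subunits of the same complexes, 47 by list and 42 of them measured, gave 0 calls at an adjusted p under 0.05 from limma in all 5 comparisons. At 24 h 29 were higher and 13 lower, with a median of 0.06, and at 48 h 15 were higher and 27 lower, with a median of -0.02. The SRCAP and TIP60 partners were higher in 12 of 13 at 24 h and in 4 of 13 at 48 h, with medians of 0.09 and -0.02. Their values do not report on the unmeasured motors SRCAP and EP400. Without untreated 24 h replicate 3, at 24 h 17 of the 42 were higher and 25 lower, with a median of -0.01, and 6 of the 13 were higher. In 2 of the 42 genes the unadjusted p was under 0.05, both for time, where 6.13% of all genes had such a p. The count of 2 thus lies near the share of all genes. The NuRD deacetylase HDAC1 was higher at 48 h by 0.20 (SE 0.09, adjusted p = 0.738 from limma), and BAZ2B, a partner of ISWI motors, by 0.32 (SE 0.14, adjusted p = 0.732 from limma).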

How the data were processed

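RNA of 12 A549 samples was hybridised to Affymetrix Human Exon 1.0 ST arrays. The authors summarised the arrays by RMA with Expression Console and Power Tools, and the deposited values are log2 values from 2.14 to 14.31. Genes were named through the probe table given for the series, the brightest row was kept where a gene had several, and rows shared by several genes were left out. Differences were tested with limma 3.58.1 in R 4.3.3: a model of 4 group means gave both effects and their difference, an additive model gave cisplatin and time, and p-values (two-sided) were adjusted by Benjamini-Hochberg over 14232 genes. The scripts were tested on simulated data. Precision is limited by the number of arrays. The members and lists were chosen with earlier results of these data known. Array values are given for the motors, the siRNA hits and, per complex, the gene with the smallest p in each comparison. Alternatives were a replicate block, each array left out, quantile normalization, median centring, array weights, trend and robust variances, a filter on level, other row rules, other thresholds, no time term and arrays of 1 time alone. Array weights gene by gene, the block without untreated 24 h replicate 3, and the block in the 48 h arrays alone were added after seeing the data. The labels do not say what a replicate number marks. Deviations of arrays of the same number correlated, across genes, at 0.31, 0.60 and 0.17 at 48 h, so that these may be paired, and at -0.34, 0.21 and -0.39 at 24 h.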

Additional observations from a re-analysis of the deposited data

Results flagged for a closer look

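INO80C on untreated 24 h replicate 3 was far from the other untreated arrays. Its log2 value was 6.63, and those of the other 5 untreated arrays ran from 7.05 to 7.22. The gap was 0.711 of the range of the 6 arrays, above Dixon's critical value. It was 1 of 40 groups of arrays examined over 20 named genes to be so far out, and chance gives about 1 in 20.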

How the results depend on the processing

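Of 24 alternatives, 23 called 0 remodelling genes in every comparison that they covered. Their smallest adjusted p from limma was 0.0963, and at most 6 genes had an unadjusted p under 0.05, for time. That count came from array weights gene by gene, where 16.2% of all genes had such a p for time. Each comparison had 21 to 23 alternatives, and the filter on level kept 30 of the 33 genes. The exception was REML array weights at 24 h, where 4 genes passed (adjusted p of 0.0409 for INO80, 0.0268 for RUVBL2, 0.0187 for SMARCC1 and 0.0265 for BAZ1B). There BAZ1B changed from 0.02 to -0.19 and INO80 passed the threshold. This estimate stopped before convergence, gave 1 untreated 24 h array a weight of 17.4, and called 2254 genes at 24 h, 55 for cisplatin over both times and 312 for time. Its medians were -0.031 for SWI/SNF and -0.083 for CHD/NuRD at 24 h, and for the 48 h effect minus the 24 h effect 0.20 for CHD/NuRD, 0.21 for ISWI and 0.0051 for all remodelling genes. Weights estimated gene by gene, an alternative chosen after seeing the data, called 11, 374, 1, 53 and 283 genes in the 5 comparisons (24 h, 48 h, the difference of the effects, cisplatin over both times, time). Its medians were -0.020 for SWI/SNF and -0.072 for CHD/NuRD at 24 h, and 0.019 for SWI/SNF in the difference of the effects. The cause of the difference between both kinds of weights was not tested.

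Leaving out 1 array at a time gave 0 to 3 genes at 24 h, 0 to 1 at 48 h, 0 to 1 for the difference of the effects, 3 to 18 for cisplatin over both times and 9 to 25 for time. At 24 h it gave medians from -0.025 to 0.10 for SWI/SNF, from -0.076 to 0.14 for CHD/NuRD and from -0.020 to 0.12 for all remodelling genes, each lowest without untreated 24 h replicate 3. The ISWI median at 48 h ranged from -0.015, without untreated 48 h replicate 2, to 0.19. ACTL6A at 24 h had an unadjusted p under 0.05 without untreated 24 h replicate 1, and INO80C without untreated 24 h replicate 2 or without cisplatin 24 h replicate 1. Such a p was held by 11%, 4.7% and 3.84% of all genes in these settings, in that order, beside 1 of 33 remodelling genes in each.

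No source says that equal replicate numbers mark a shared experiment. Arrays of the same number deviated together in all 3 pairs at 48 h and in 1 of 3 at 24 h. In the 48 h arrays alone with the replicate block, chosen after seeing the data, 0 genes passed. With the replicate number as a block, 17 genes passed for cisplatin over both times and 87 for time, and 0 remodelling genes passed. With the replicate block and without untreated 24 h replicate 3, chosen after seeing the data, 0, 2, 20 and 121 genes passed at 24 h, at 48 h, for cisplatin over both times and for time. The medians were then -0.12 for CHD/NuRD and -0.019 for all remodelling genes at 24 h, and 0.16 for CHD/NuRD and 0.23 for ISWI in the difference of the effects.

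Quantile normalization called 1 gene at 48 h and 12 for cisplatin over both times, and median centring 9 for time. Trend and robust variances called 2 at 24 h, 1 at 48 h, 14 for cisplatin over both times and 30 for time. With genes above the median level alone, 2, 1 and 17 genes passed at 24 h, at 48 h and for cisplatin over both times. Without a time term 13 genes passed for cisplatin, and with the 24 h arrays alone 0 passed. At an unadjusted p under 0.05, 436, 164, 163, 474 and 872 genes passed in the 5 comparisons, and at an unadjusted p under 0.005, the threshold of the study, 37, 27, 5, 64 and 213. The remaining values of the group medians moved by less than 1 SD of the array means.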
